A study of Mus musculus with 8 samples.

Results

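The 10 genes described here encode core parts of the Polycomb repressive complexes: Ezh1, Ezh2, Eed, Suz12, Jarid2, Mtf2 and Phf19 of PRC2, and Bmi1, Rnf2 and Ring1 of PRC1. They were chosen by gene symbol, and all 10 were found among the 34094 genes of the table. The tissue is labelled hippocampal CA1, though sample titles say only hippocampus, and came from C57BL/6 mice aged 2 months, in 4 libraries of a conditional knockout (cKO) of Brpf1, which the labels also call a Brpf1 knockdown, and 4 libraries of wild type (WT) mice. The series title places the loss in the hippocampus, but neither the Cre driver nor the deleted exons nor the sex of the animals is given in the sources used here. Which mouse each library came from is not labelled, and the extraction text counts 3 pairs of animals for 4 and 4 libraries, so a p-value here covers library-to-library spread, part of which may be technical. The libraries held between 40330226 and 46559795 reads on genes in cKO and between 42346644 and 49897832 in WT.

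Polycomb complexes keep developmental genes silent through marks on histones. PRC2 methylates H3K27, with Ezh1 or Ezh2 as the catalytic subunit, Suz12 as the scaffold and Eed as the reader of the finished mark, and the accessory subunits Jarid2, Mtf2 and Phf19 help to bring it to chromatin. PRC1 attaches ubiquitin to histone H2A through the RING proteins Rnf2 and Ring1, which pair with a PCGF protein such as Bmi1. In the mouse, Ezh2 is known mainly from dividing progenitors and Ezh1 from cells that have left the cell cycle, neurons included. Brpf1, the deleted gene, is the scaffold of histone acetyltransferase complexes, which act on the active state of chromatin.

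The start regions of Ezh1, Ezh2 and Phf19 are shown because the levels of the paired catalytic subunits stood far apart and because Phf19 had the lowest level of the group. Each window runs 5′ to 3′ on its gene's strand from 250 bases before to 50 bases after the RefSeq start (build GRCm38.p6, a later build than that of the deposited files). Capitals mark matches on either strand to the E2F words TTTGGCGC, TTTGCCGC, TTTCGCGC and TTTCCCGC or to CCAAT. E2F factors are the cell cycle regulators for which human EZH2 and EED are known targets.
Ezh1, chr11:101226414-101226713, minus strand: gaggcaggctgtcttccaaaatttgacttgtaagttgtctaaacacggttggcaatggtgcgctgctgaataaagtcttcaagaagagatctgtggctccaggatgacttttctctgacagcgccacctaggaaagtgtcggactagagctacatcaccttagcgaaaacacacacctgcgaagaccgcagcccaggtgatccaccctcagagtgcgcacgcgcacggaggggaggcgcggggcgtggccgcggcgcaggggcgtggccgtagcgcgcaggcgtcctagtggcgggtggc
Ezh2, chr6:47594981-47595280, minus strand: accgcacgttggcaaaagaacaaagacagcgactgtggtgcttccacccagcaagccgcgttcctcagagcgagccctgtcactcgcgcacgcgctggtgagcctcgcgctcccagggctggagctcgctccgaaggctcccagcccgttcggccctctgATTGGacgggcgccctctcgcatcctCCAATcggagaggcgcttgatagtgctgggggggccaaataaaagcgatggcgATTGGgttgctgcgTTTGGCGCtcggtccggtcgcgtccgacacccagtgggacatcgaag
Phf19, chr2:34913927-34914226, minus strand: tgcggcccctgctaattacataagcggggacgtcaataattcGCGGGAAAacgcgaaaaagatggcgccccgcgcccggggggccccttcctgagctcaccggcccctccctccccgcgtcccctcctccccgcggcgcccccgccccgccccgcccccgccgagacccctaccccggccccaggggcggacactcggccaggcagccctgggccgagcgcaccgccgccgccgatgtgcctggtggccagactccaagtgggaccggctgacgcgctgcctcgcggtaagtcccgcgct

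The Ezh2 window held 1 E2F word and 3 CCAAT words, and the Ezh1 window held 0 of either. The Phf19 window held 1 E2F word, on the other strand, and the window of Suz12 held 1 as well. All 10 genes matched the RefSeq table by symbol, with 12 windows, of which 3 held an E2F word and 6 a CCAAT word, beside 2.26% and 37.4% of all 32851 windows. The GC content of the 12 windows was 45.7 to 74.3%, against a median of 52.7% over all windows, and the shares were not matched for it. The E2F and CCAAT words did not overlap each other in these windows. A match is a string of letters and no evidence of binding.

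None of the 10 genes passed the test between cKO and WT. Values are normalized reads (read numbers scaled by a size factor per library), and differences are cKO minus WT in log2(normalized reads + 1), a scale on which low genes show less than their full change. All 10 genes passed the filter on low values, and 0 passed limma at an adjusted p under 0.05 (Benjamini-Hochberg over 26135 genes; lowest adjusted p 0.536), where 0.0191% of all genes tested passed. At an unadjusted limma p under 0.05 there was 1 of 10, Phf19, lower in cKO, against 8.67% of all genes tested, and limma-voom on the recovered reads likewise had 0 past its adjusted p and 1 at an unadjusted p under 0.05. In 0 of 10 did all cKO libraries lie above or below all WT libraries, which was so for 4.92% of all genes tested. Of the 10 genes 0 had an FDR under 0.05 in the authors' deposited table, against 0.657% of its genes. Of the 10 differences 5 were positive and 5 negative, with a median of −0.0025, beside −0.018 over all genes tested.

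**Figure D1:**
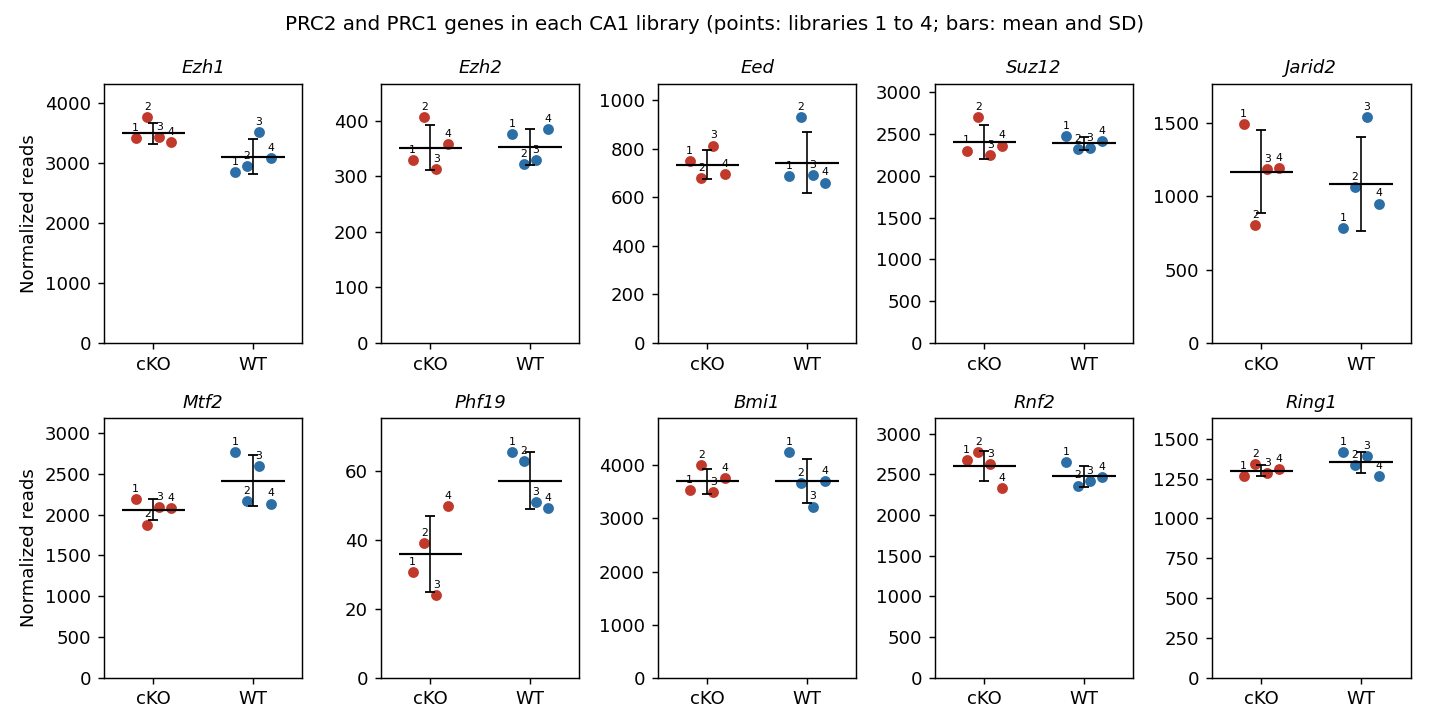
Normalized reads (y axis, from 0, scale set for each gene) of the 10 genes in the 4 cKO (red, left) and 4 WT (blue, right) libraries, with the replicate number beside each point and the mean and SD in black. The groups overlap in every panel, most narrowly for Phf19, where 1 cKO library at 49.8 lies within the WT range of 49.2 to 65.5.

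Of the catalytic subunits of PRC2, Ezh1 was abundant and Ezh2 was not. Ezh1 had 3423, 3762, 3439 and 3354 normalized reads in the 4 cKO libraries, against 2856, 2952, 3522 and 3088 in the 4 WT libraries. The cKO libraries lay close together and 3 of the 4 WT libraries lay below all of them, while WT replicate 3 lay inside the cKO range. The log2 difference was 0.17 (SE 0.083, 95% interval −0.0093 to 0.36, limma adjusted p = 0.590).

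Ezh2 had 329, 406, 312 and 357 normalized reads in the cKO libraries, against 376, 322, 329 and 385 in the WT libraries. The groups covered nearly the same range, and the log2 difference was −0.010 (SE 0.13, 95% interval −0.30 to 0.27, limma adjusted p = 0.988). An interval of that width does not show that the levels were alike.

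Per length, Ezh1 stood above Ezh2 in every library. Levels per kb of exon were 470 ± 24.4 for Ezh1 and 52.6 ± 6.10 for Ezh2 in cKO, and 417 ± 39.6 and 52.9 ± 4.79 in WT (normalized reads per kb, SD, n = 4). The ratio of Ezh1 to Ezh2 per kb was 9.33, 8.32, 9.88 and 8.43 in the cKO libraries, against 6.83, 8.23, 9.61 and 7.19 in the WT libraries. The ratios overlapped between the groups. They depend on the length assumed, and with the longest annotated transcript of each gene in place of all its exons the ratio averaged 6.64 ± 0.55 in cKO and 5.88 ± 0.92 in WT (SD, n = 4). Bulk tissue pools neurons with all other cells, so fewer cells of a type and less RNA per cell cannot be told apart in these values.

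Suz12 and Eed, the other core subunits of PRC2 among the 10 genes, were level between the groups at the mean. The PRC2 subunits Rbbp4 and Rbbp7, outside the 10, are given further below. Suz12, the scaffold without which the complex is unstable, had 2304, 2701, 2254 and 2362 normalized reads in cKO, against 2481, 2322, 2333 and 2419.9 in WT, with a log2 difference of 0.0066 (SE 0.078, 95% interval −0.17 to 0.18, limma adjusted p = 0.987). Eed, which binds the methylated tail and stimulates the enzyme, had 748, 679, 813 and 695 in cKO, against 688, 928, 692 and 660 in WT. WT replicate 2 lay far above the other WT libraries. With it the log2 difference of Eed was −0.0055 (SE 0.13, 95% interval −0.28 to 0.27, limma adjusted p = 0.993), and without it 0.11 (SE 0.11, limma adjusted p = 0.860). As for Ezh2, an interval of that width does not show that the levels were alike.

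Of the accessory subunits, Jarid2 and Phf19 varied more between libraries than the other 8 genes, and Mtf2 did not. Jarid2, which lacks demethylase activity and helps PRC2 to engage nucleosomes, had 1488, 804, 1184 and 1191 normalized reads in cKO, against 783, 1063, 1536 and 949 in WT. High and low libraries occurred in both groups, and the log2 difference of 0.12 was smaller than its SE of 0.22 (limma adjusted p = 0.916). Its residual SD of 0.39 on the log2 scale was the highest of the 10 genes, against 0.056 for Ring1, the lowest, and a median of 0.33 over all genes tested.

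Mtf2 and Phf19 encode Polycomb-like proteins, which bind CpG-rich DNA and H3K36 methylation and take the same place in PRC2. Mtf2 had 2191, 1877, 2097 and 2079.8 normalized reads in cKO, against 2767, 2169, 2593 and 2135 in WT. WT replicates 1 and 3 lay above all cKO libraries, and the other WT libraries lay inside the cKO range. The log2 difference was −0.22 (SE 0.10, 95% interval −0.44 to 0.00052, limma adjusted p = 0.578).

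Phf19 had 30.7, 39.2, 24.0 and 49.8 normalized reads in cKO, against 65.5, 63.0, 51.1 and 49.2 in WT. Of the cKO libraries, 3 lay below all WT libraries. The cKO mean was 62.8% of the WT mean, and the log2 difference was −0.70 (SE 0.28, 95% interval −1.32 to −0.075, limma adjusted p = 0.536, two-sided exact permutation p = 0.0571, where 0.0286 is the smallest possible). These values rest on 142 reads over the 4 cKO libraries and 237 over the 4 WT libraries, so the depth limits what can be told. The third Polycomb-like gene, Phf1, named after its values were seen, had 993 ± 136 in cKO and 1078 ± 108 in WT (SD, n = 4), a log2 difference of −0.12 (SE 0.12, limma adjusted p = 0.789).

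The 3 PRC1 genes overlapped widely between the groups. Bmi1, the PCGF subunit known for restraining the Ink4a/Arf locus in neural stem cells, had 3531, 4003, 3493 and 3760 normalized reads in cKO, against 4248, 3660, 3223 and 3701 in WT. The WT libraries spanned more than the cKO libraries and enclosed them, with a log2 difference of 0.00040 (SE 0.092, 95% interval −0.20 to 0.20, limma adjusted p = 0.999).

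Rnf2, the main H2A ligase of PRC1, had 2675, 2772, 2630 and 2333 normalized reads in cKO, against 2654, 2362, 2413 and 2468 in WT (log2 difference 0.071, SE 0.079, limma adjusted p = 0.826). Its paralog Ring1 had 1267, 1339, 1285 and 1312 in cKO, against 1416, 1337, 1389 and 1266 in WT (log2 difference −0.055, SE 0.075, limma adjusted p = 0.866). The cKO and WT ranges overlapped for both genes. Per kb of exon Rnf2 exceeded Ring1 in every library, by a ratio of 1.57 ± 0.12 in cKO and 1.44 ± 0.077 in WT (SD, n = 4).

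**Figure D2:**
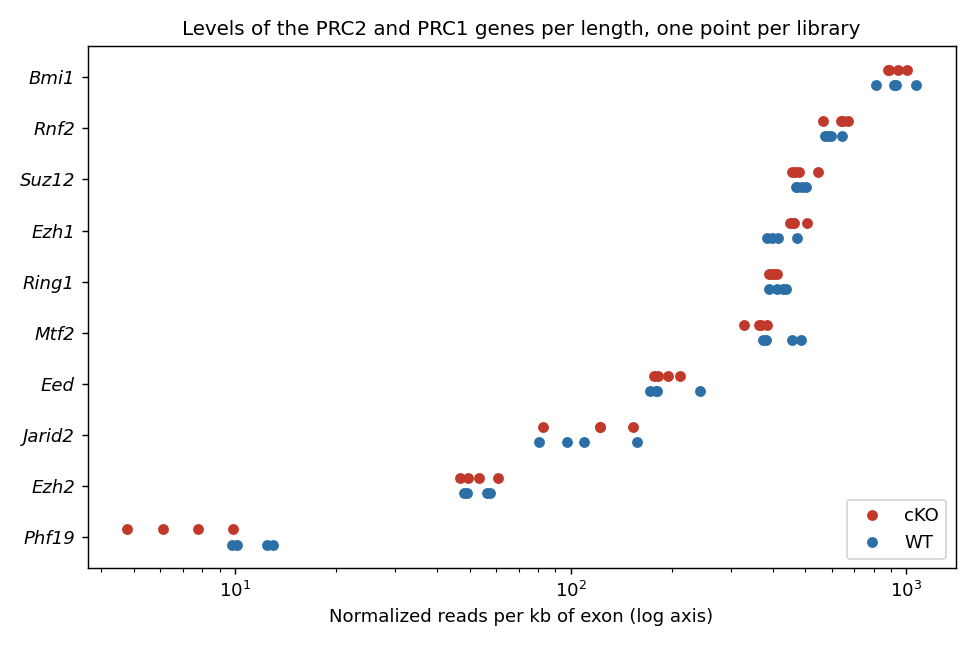
Normalized reads per kb of exon (log x axis) of each gene, one point per library, with cKO (red) above WT (blue). Bmi1 lies highest at 811 to 1069, Ezh2 lies between 46.8 and 60.7, and Phf19 lies lowest at 4.77 to 13.0.

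Ordered by level per kb of exon over the 8 libraries, Bmi1 came first (mean 932 normalized reads per kb), then Rnf2 (615), Suz12 (485), Ezh1 (443), Ring1 (409), Mtf2 (393), Eed (193), Jarid2 (116), Ezh2 (52.7) and Phf19 (9.24). Bmi1, Rnf2, Eed, Jarid2, Ezh2 and Phf19 had ranges that did not meet those of their neighbours. From Suz12 to Mtf2 each gene's range overlapped that of the next, so neighbours there are not told apart, although Suz12 (456 to 546) lay above Ring1 (390 to 437) in every library. With the longest transcript as the length, Ezh1 moved to 784 per kb, next to Rnf2 at 793, and Ezh2 to 126, next to Jarid2 at 135, while Bmi1 (1030) stayed first and Phf19 (12.4) last. Over 8 libraries and 14119 other genes with a mean of at least 100 normalized reads, the centred log2 values closest to those of Ezh1 were those of Borcs7, Psmf1 and Ss18l1 (root mean square difference 0.035, 0.039 and 0.041), and to those of Ezh2 those of Gm43437, Zfp24 and Dhdh (0.050, 0.054 and 0.058).

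Around the core genes, 57 further genes of Polycomb and opposing complexes were found in the table, and 56 were tested. Of these 0 passed limma, 3 had an unadjusted limma p under 0.05 and were higher in cKO, and 3 were lower, near the 8.67% of all genes tested, while 28 differences were positive and 28 negative (median −0.0021). The 1 gene of 56 whose groups did not overlap, a smaller share than the 4.92% of all genes tested, was Rbbp7, which encodes a histone-binding WD repeat subunit of PRC2 that also serves other chromatin complexes. It had 6027, 6239, 5633 and 5483 normalized reads in cKO, against 4741, 4588, 4500.4 and 5131 in WT. All cKO libraries lay above all WT libraries, with a log2 difference of 0.30 (SE 0.073, limma adjusted p = 0.419, two-sided exact permutation p = 0.0286, the smallest possible). The authors' deposited table gives Rbbp7 an FDR of 0.00910, the 1 value under 0.05 among these genes, against 0.657% of all genes in that table. Its paralog Rbbp4 had 6951 ± 332 in cKO and 6907 ± 341 in WT (SD, n = 4, log2 difference 0.0093, SE 0.068).

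**Figure D3:**
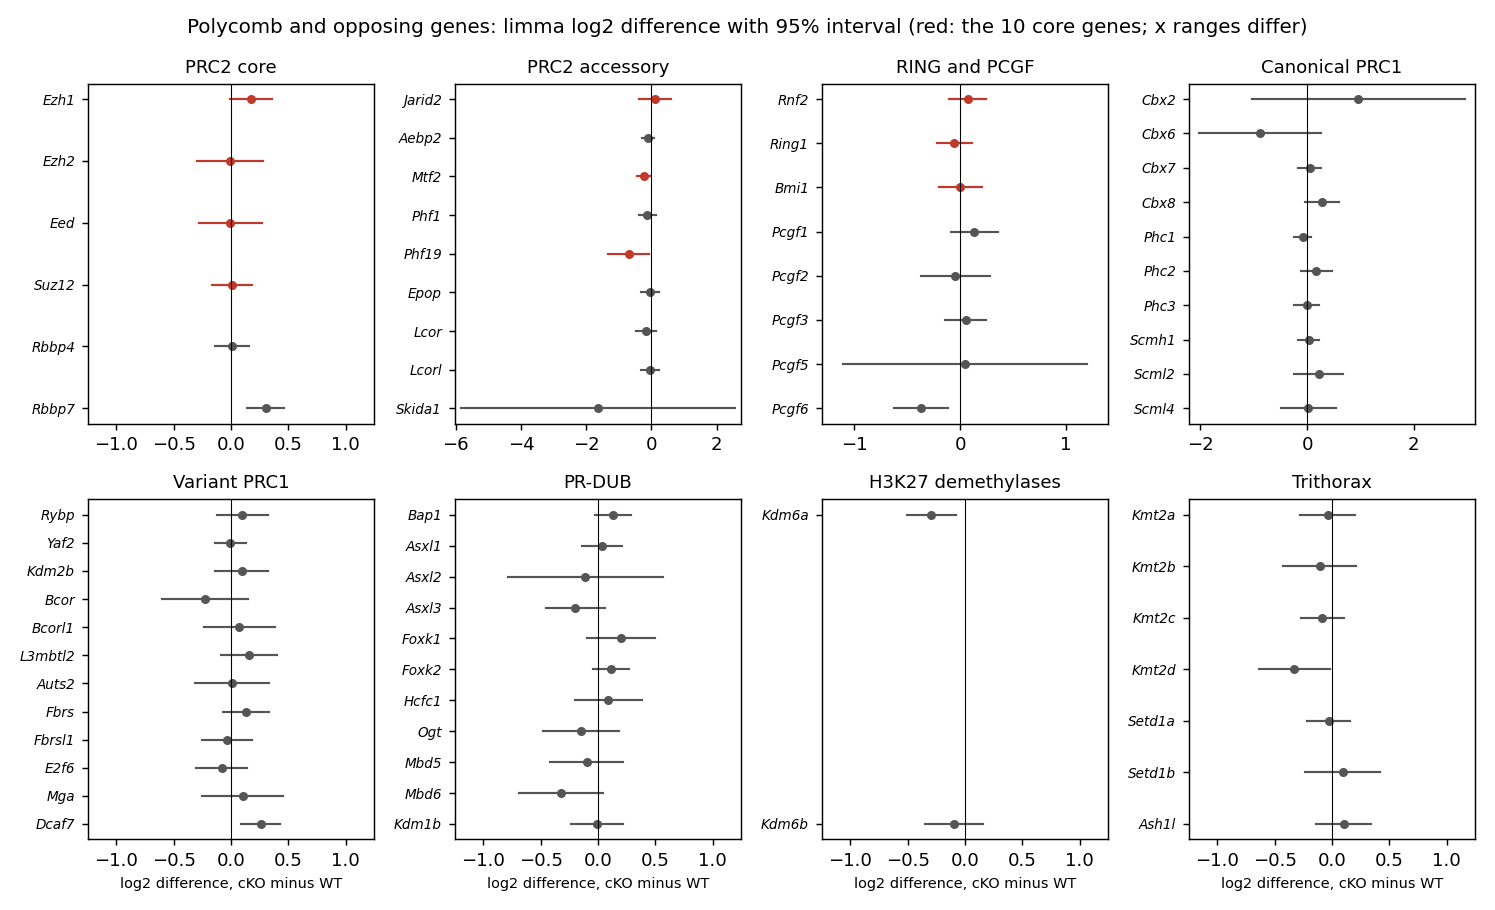
Log2 difference, cKO minus WT, from limma (points) with its 95% interval (lines) for tested genes of 8 lists, the 10 core genes in red and the others in grey; x ranges differ between panels. Most intervals cross 0, and those of Skida1, Cbx2 and Pcgf5 are the widest.

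Among PRC2 accessory genes 1 of 9 differences was positive and 8 were negative, 1 with an unadjusted limma p under 0.05 (Phf19), with a median of −0.12. Aebp2, which stabilises a PRC2 form with Jarid2, had 2003 ± 132 in cKO and 2156 ± 141 in WT (log2 difference −0.11, SE 0.081), and Lcorl 1653 ± 302 in cKO and 1683 ± 140 in WT (SD, n = 4). Of the 8 RING and PCGF genes 1 had an unadjusted p under 0.05, which was Pcgf6 of a variant PRC1, named after its values were seen, with 1369.5 ± 202.4 in cKO and 1762 ± 141 in WT (SD, n = 4, log2 difference −0.37, SE 0.12, limma adjusted p = 0.496). Pcgf3, of another variant PRC1, had 2392 ± 94.1 in cKO and 2317 ± 228 in WT.

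In canonical PRC1, where CBX proteins read the H3K27 mark and PHC proteins join complexes together, 8 of 11 differences were positive (median 0.045). Cbx7 had 2543 ± 278 in cKO and 2460.1 ± 188 in WT, and Phc2 had 2564 ± 409 in cKO and 2279 ± 298 in WT (SD, n = 4). In variant PRC1, 8 of 12 were positive (median 0.083), with Dcaf7 at 11581 ± 619 in cKO and 9696 ± 797 in WT (log2 difference 0.26, SE 0.077, limma adjusted p = 0.496), Yaf2 at 4346 ± 113 in cKO and 4372 ± 95.1 in WT, and Mga at 3700.2 ± 136 in cKO and 3530.0 ± 831 in WT.

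Genes that oppose or undo Polycomb marks did not pass either. Of the demethylases of H3K27, Kdm6a had 1538, 1776, 1483 and 1850 normalized reads in cKO, against 2102, 1842, 2200 and 1996 in WT. The groups overlapped only through cKO replicate 4 and WT replicate 2, and the log2 difference was −0.30 (SE 0.096, limma adjusted p = 0.496). Kdm6b had 1650.5 ± 144 in cKO and 1771 ± 252 in WT (SD, n = 4), and Uty, with 3 reads in cKO and 4 in WT, was below the filter.

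In the PR-DUB complex, which removes ubiquitin from H2A, 5 of 11 differences were positive (median −0.010), with 0 at an unadjusted limma p under 0.05. Bap1, its protease, had 4636 ± 276 in cKO and 4238 ± 215 in WT, Ogt 14763 ± 3750 in cKO and 15982 ± 642 in WT, and Foxk2 4148 ± 193 in cKO and 3836 ± 219 in WT (SD, n = 4). Of the 7 trithorax-type methyltransferases, which act on H3K4 or, in the case of Ash1l, on H3K36, 2 differences were positive (median −0.040). Kmt2a had 7822 ± 1099 in cKO and 8010 ± 802 in WT, Ash1l 7393 ± 795 in cKO and 6908 ± 971 in WT, and Kmt2d 4438 ± 752 in cKO and 5568 ± 907 in WT (SD, n = 4), the last with a log2 difference of −0.33 (SE 0.14, limma adjusted p = 0.560).

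Several of these genes varied widely between libraries, and all but Cbx6 were picked after their values were seen. Skida1 had 14.8, 725, 500 and 19.2 normalized reads in cKO, against 868, 707, 608 and 27.6 in WT, so low libraries occurred in both groups. Cbx6, a CBX gene of canonical PRC1, had 15544, 3446, 5667 and 12780 in cKO, against 11667, 14424, 17328 and 15247 in WT, and the gene Npcd, which overlaps it on the same strand by 563 bases of exon, had 88.9, 284, 370 and 107 in cKO, against 64.5, 96.5, 64.1 and 58.7 in WT. Npcd was thus highest in cKO replicates 2 and 3, in which Cbx6 was lowest. Pcgf5 ranged from 290 to 953 in cKO and from 238 to 979 in WT, and Cbx2 had 11.2 in WT replicate 2 against 159 to 189 in the other WT libraries and 150 to 207 in cKO.

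**Figure D4:**
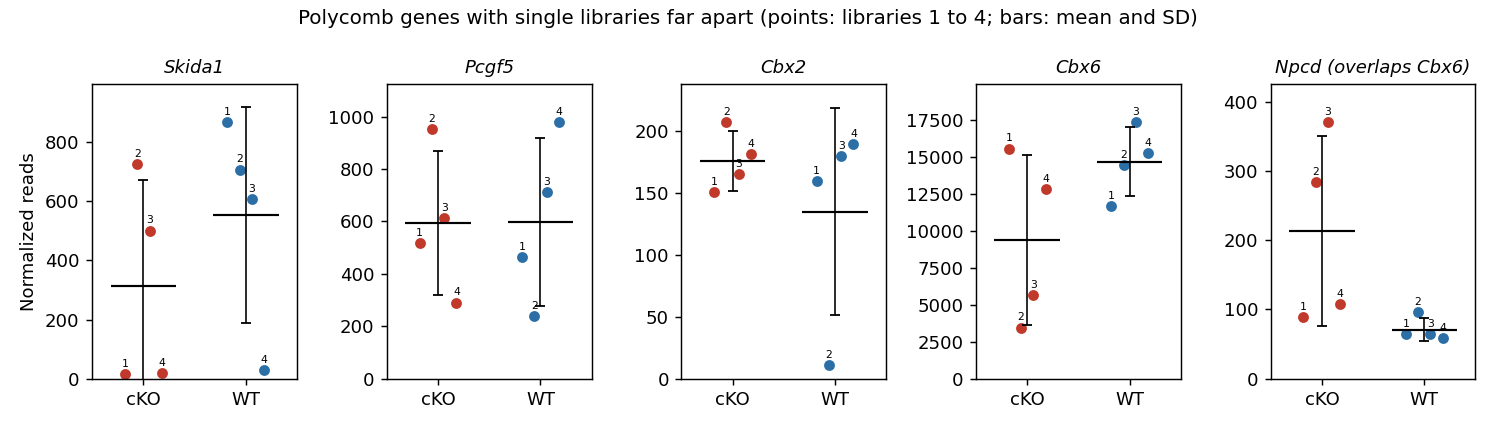
Normalized reads (y axis, from 0, scale set for each gene) of Skida1, Pcgf5, Cbx2, Cbx6 and Npcd in cKO (red, left) and WT (blue, right), with replicate numbers, mean and SD. Skida1 is low in cKO replicates 1 and 4 and WT replicate 4, and Cbx6 is low where Npcd is high.

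Among genes long known as Polycomb targets, 34 were tested (Hox, Pax and other developmental families and the Ink4 genes). The target lists were chosen with earlier results of these data known, so shares within them are no test of Polycomb targets. The paired box gene Pax2 was the 1 past limma, where 0.0191% of all genes tested passed. It had 253, 244, 497 and 577 normalized reads in cKO, against 20.8, 10.2, 32.5 and 14.7 in WT (log2 difference 4.27, SE 0.39, limma adjusted p = 0.00586). Every cKO library lay above every WT library for Pax2. Of the 34 differences 18 were positive and 16 negative. Of the 23 outside the Hox and Ink4 genes, 9 were positive and 14 negative. Pax1, with 0 reads in WT, passed the filter through the cKO libraries alone. Of 39 Hox genes 29 were in the table and 10 passed the filter, with 8 differences positive and 2 negative and 0 past limma. Of these 10 genes 7 were higher in cKO at an unadjusted limma p under 0.05, against 1063 of all 26135 genes tested. An FDR under 0.05 in the authors' deposited table was held by 3 of them (Hoxa7, Hoxc4 and Hoxc6), against 0.657% of all genes in that table. Hoxc4 and Hoxc6 were near the floor in WT. Over the 4 libraries of each group, Hoxc4 had 115 reads in cKO and 2 in WT, and Hoxc6 had 115 in cKO and 6 in WT. Hoxa4, Hoxb13, Hoxc4 and Hoxc10 passed the filter through their 4 cKO libraries, with reads in only 1 WT library each. So did Hoxc6, with 3.12, 0, 0 and 2.59 in WT, and Hoxd8, with reads in WT replicates 1 and 2 alone. Of the 7 higher in cKO, only Hoxa7 would have passed the filter on its WT libraries alone. Which Hox genes were tested thus depended in part on their level in cKO, and the 7 of 10 is no test of Hox genes as a group. Of the 19 below the filter, with at most 16 reads in a group, 7 had more reads in cKO and 12 fewer. Most of these 12 had WT reads in WT replicate 1 alone, as Hoxb6 (11.4 normalized reads) and Hoxb9 (10.4) did. Hoxd8, which passed the filter, had 33.3 in that library, against 0 to 3.05 in the other WT libraries. Hoxa7 was among those tested, with 33.9, 66.3, 39.3 and 52.7 in cKO, against 11.4, 11.2, 2.79 and 2.59 in WT (limma adjusted p = 0.261, FDR 3.12e-05 in the authors' deposited table). Cdkn2a, the Ink4a/Arf gene that Bmi1 is known to hold silent, had 0, 12.0, 0 and 5.75 in cKO, against 0, 11.2, 0 and 0 in WT, below the filter, and Cdkn2b had 17.4 ± 9.04 in cKO and 15.5 ± 3.48 in WT (SD, n = 4, log2 difference 0.033, SE 0.44).

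The targeted gene, Brpf1, had 848, 1032, 897 and 1004.5 normalized reads in the cKO libraries, against 1358, 1451, 1473 and 1380.1 in WT (log2 difference −0.59, SE 0.089, limma adjusted p = 0.132, FDR 1.47e-07 in the authors' deposited table). All cKO libraries lay below all WT libraries. All 5 CA1 markers had reads in every library, with a summed level of 12399 to 17515 in cKO and 10290 to 17584 in WT, and so had all 5 dentate granule markers (16965 to 22185 in cKO and 18543 to 22907 in WT), so the libraries also held RNA of genes that mark the dentate gyrus. The 8 markers of dividing cells summed to 2551 to 2847 in cKO and 2319 to 2676 in WT, with 7 differences positive and 1 negative. Most of each sum was Pcna (1736 to 1910.5 in cKO and 1584 to 1882 in WT). All 9 oligodendrocyte markers had negative differences (95582 to 147570 in cKO and 117430 to 173090 in WT), all 7 choroid plexus markers did (10433 to 47087 in cKO and 5173 to 163120 in WT), all 6 microglia markers had positive ones (10662 to 14018 in cKO and 10755 to 11829 in WT). Of these 22 markers 0 passed limma, 3 oligodendrocyte and 1 choroid plexus markers were lower in cKO and 2 microglia markers higher at an unadjusted limma p under 0.05 (8.67% of all genes tested), and 2 oligodendrocyte markers had an FDR under 0.05 in the authors' deposited table. Of 6 astrocyte markers 4 differences were positive and 2 negative (175130 to 190500 in cKO and 143140 to 198280 in WT), and of 6 endothelial markers 1 was positive and 5 negative (5995 to 7079.6 in cKO and 6679 to 7604 in WT). The part of these cell types in the Polycomb values was not tested.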

How the data were processed

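The submitters' processing notes name the tools STAR, StringTie and DESeq2, used by the authors, and the genome build mm9, without roles, versions, annotation or strand setting. The authors deposited log2 values per gene and library, with their own log2 fold change, p-value and FDR. Each value equals log2(reads / size factor + 1), since 100% of values give whole reads within 0.001. The deposited values were compared by limma 3.58.1 (R 4.3.3; trend, robust, no covariate), 4 cKO against 4 WT libraries, for 26135 genes that reached a normalized value of 1 in 4 or more libraries, with Benjamini-Hochberg adjustment and a threshold of 0.05. The main test used the deposited log2 values; reads recovered from them entered limma-voom as an alternative. Exact permutation tests used mean log2 values. Exon lengths and overlaps came from GENCODE M21 (GRCm38), the longest-transcript length being added after seeing the data. The genes and lists were chosen with earlier results of these data known. Named were all 10 genes, Brpf1, in each Polycomb list the 3 most abundant genes and any past the test or without overlap between groups, and target genes past either test, of which a part is given. The procedure was tested on simulated data. Figures were drawn with matplotlib 3.10.9. The values of 1 gene of the canonical PRC1 list, counted in the totals, are not reported here.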

Additional observations from a re-analysis of the deposited data

Results flagged for a closer look

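Eed in WT replicate 2 had 928 normalized reads, far above the other 3 WT libraries at 660 to 692. Chance alone sets a library that far apart in about 1 in 20 groups of 4, and 22 groups of Brpf1 and the 10 core genes were looked at, of which this was the 1 so marked. Over all Polycomb genes tested and Brpf1, 8 of 134 groups were marked, the others being Rbbp4 in cKO replicate 4 (6459), Pcgf3 in WT replicate 1 (1975), Cbx2, Fbrs and Asxl2 in WT replicate 2 (11.2, 1294 and 722), Kdm1b in cKO replicate 2 (649) and Ash1l in WT replicate 3 (8353).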

How the results depend on the processing

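Over 15 alternatives (quantile normalization, no filter, a stricter filter at 10, a pseudocount of 0.1, limma-voom, array weights, a replicate block and leaving out each library), 0 of the 10 genes passed limma, and Brpf1 kept its direction without passing. Ezh1, Mtf2, Phf19, Rnf2 and Ring1 kept their direction under all 15. Near-zero differences changed sign. With quantile normalization they were 0.037 for Ezh2, 0.0038 for Eed, −0.031 for Suz12 and −0.033 for Bmi1, and with array weights 0.021 for Eed, −0.015 for Suz12 and −0.012 for Bmi1; the cause was not tested. Leaving out 1 library gave −0.082 to 0.043 for Ezh2, −0.057 to 0.11 for Eed, −0.050 to 0.037 for Suz12, −0.065 to 0.068 for Bmi1 and −0.021 to 0.30 for Jarid2. Over all genes 5 passed limma, 8 with array weights, 2 with the replicate block and 4 to 7 without 1 library. Over all genes tested, same-numbered libraries did not deviate together (correlations −0.0037, 0.029, 0.021 and −0.040). Such correlations cannot decide whether same-numbered libraries were paired, and no label ties them. The block left 0 of the 10 genes called. Phf19, with 142 and 237 reads in cKO and WT, is the gene most limited by depth.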

Other observations

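Some of these genes share exon with a neighbour on the opposite strand, and the strand setting of the counting is not given, so reads of such pairs cannot be told apart. Txlng, which shares 174 bases of exon with Rbbp7, had 1582, 1711, 1429 and 1271 normalized reads in cKO, against 2016, 1802, 1585 and 1718 in WT, while Rbbp7 was the higher in cKO. Tmed5, which shares 395 bases with Mtf2, had 2774, 2599, 2323 and 2457 in cKO, against 3012, 2776, 2375 and 2353 in WT. E230029C05Rik, which shares 261 bases with Eed, had 181, 162, 110 and 147 in cKO, against 110, 154, 131 and 137 in WT, and so did not share the high value of Eed in WT replicate 2. Trmt1l, which shares 158 bases with Rnf2, had 1199, 1080, 1247 and 1298 in cKO, against 1194, 1196, 1262 and 1201 in WT.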
